A study of Mus musculus with 2 samples.

Results

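The genes described here are 10 genes of Langerhans cells and of the epidermal niche that keeps them: Cd207, Ly75, Itgax, Cd86, Cd83, Cd52, Ltc4s, Csf1r, Il34 and Tgfb1. They were chosen by name, and every non-control probe whose RefSeq accession belongs to one of them was taken. Of the 18206 genes named on the array, 9 of these 10 were read, by 12 probes. No probe matched an accession of Ly75, so this gene was not analysed here. Expression was compared between peeled mouse epidermis of the Nfkbiz flox/flox; K5-cre genotype and epidermis of the Nfkbiz flox/flox genotype, both in the steady state and with 1 array each. Both carry the floxed Nfkbiz alleles, and the K5-cre genotype alone carries the recombinase, driven by the keratin 5 promoter of keratinocytes, so that Langerhans cells themselves are not the cells in which the promoter is active. The array of the first genotype is called the knockout array and the other the control array. The sources used here state neither the age of the mice nor how many gave each RNA sample.

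Langerhans cells are the dendritic antigen-presenting cells of the epidermis, where they share the tissue with keratinocytes, melanocytes and, in the mouse, dendritic epidermal T cells. Keratinocytes make interleukin 34, a ligand of the CSF1 receptor, and Langerhans cells need this signal to settle and persist. Transforming growth factor β1, made in latent form by both cell types and activated by integrins on keratinocytes, keeps Langerhans cells in the epidermis. In bulk epidermis, more cells of a type and more RNA per cell cannot be told apart.

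On the knockout array the langerin gene Cd207 was 3.13-fold higher, and it was the only 1 of the 9 measured genes at least 2-fold apart. Of all measured genes, 2.98% were at least 2-fold higher and 4.47% at least 2-fold lower. Cd86, Cd52, Csf1r and Ltc4s were higher by less than Cd207, between 1.41-fold and 1.85-fold. Itgax, Il34 and Tgfb1 lay within 2 standard errors of no difference. The maturation gene Cd83 was 1.66-fold lower. With 1 array per genotype there is no replicate check and no difference was tested. Each value after ± is a standard error from the scanner software's error model, which covers technical error on these arrays and not differences between mice.

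The 2 arrays were close in the share of probes detected and less so in the spread of signal. Of all probes, 56.3% were well above background on the knockout array and 56.2% on the control array, and no probe was saturated. The 75th percentile of signal, to which each array was scaled, was 227 on the knockout array and 194 on the control array. The median signal lay the other way, at 20.6 on the knockout array and 22.4 on the control array. Replicate spots of a probe had a median SD in log2 signal of 0.13 on the knockout array and 0.19 on the control array. Nfkbiz, the targeted gene, had a signal of 1760 on the knockout array and 3100 on the control array (log2 difference -1.04 ± 0.20). The sources used here do not say whether its probe lies in the deleted part, and a probe outside that part checks nothing. Keratinocyte markers were bright, with Krt14 at 47800 on the knockout array and 48500 on the control array, and 10 of 10 such markers with a probe were measured on both arrays.

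The upstream sequences of 3 of the Langerhans cell genes are shown because these genes have a probe here and an entry in the RefSeq promoter table of GRCm38.p6. Each is the 250 bases before the start annotated in that table, 5′ to 3′ on the gene's own strand. Cd207 lies on the minus strand at chr6:83677858-83678107, Itgax on the plus strand at chr7:128129300-128129549 and Ltc4s on the minus strand at chr11:50238533-50238782. Capitals mark matches, on either strand, to the motifs described after them.
Cd207: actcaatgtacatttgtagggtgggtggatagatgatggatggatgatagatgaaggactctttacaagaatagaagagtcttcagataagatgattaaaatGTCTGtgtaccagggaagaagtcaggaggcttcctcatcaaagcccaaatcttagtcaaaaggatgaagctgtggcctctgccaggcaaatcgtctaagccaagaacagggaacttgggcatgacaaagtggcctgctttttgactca
Itgax: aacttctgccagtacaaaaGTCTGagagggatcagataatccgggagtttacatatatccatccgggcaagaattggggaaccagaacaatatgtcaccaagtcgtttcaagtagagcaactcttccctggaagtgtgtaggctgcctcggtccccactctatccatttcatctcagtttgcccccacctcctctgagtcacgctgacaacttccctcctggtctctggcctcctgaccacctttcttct
Ltc4s: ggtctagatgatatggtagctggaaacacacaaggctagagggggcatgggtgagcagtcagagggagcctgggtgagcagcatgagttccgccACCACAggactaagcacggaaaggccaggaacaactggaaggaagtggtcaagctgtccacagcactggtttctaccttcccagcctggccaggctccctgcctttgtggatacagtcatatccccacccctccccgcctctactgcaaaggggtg

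Of the 10 genes, 5 had an entry in that table that was read here, these 3 with Ly75 and Tgfb1. Entries of the 10 genes on 1 chromosome were left out. Windows were searched on both strands for a motif of the myeloid factor PU.1 (GAGGAAGT), of the RUNX factors (TGTGGT) and of the SMAD proteins that carry TGF-β signals (CAGAC). The Cd207 window held 1 match, to the SMAD motif, at 148 to 144 bases before the start. The Itgax window also held 1 SMAD match, at 231 to 227 bases, and the Ltc4s window 1 RUNX match, at 156 to 151 bases. No marked match overlapped another. The SMAD motif is short and was found in 42.2% of all 32851 windows of this length in the table, and the RUNX motif in 14.0%. None of the 5 windows held the PU.1 letters, which occurred in 2.44% of all windows. The windows differed in composition. The Cd207 window had a GC content of 43.6% with 1 CpG dinucleotide and the Tgfb1 window 75.2% with 21, against medians of 52.4% and 6 over the table. A match is a description of the letters and not a binding site.

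Langerin, encoded by Cd207, is the C-type lectin that forms the Birbeck granules of Langerhans cells and takes up mannose-bearing ligands. Its single probe had a signal of 608 on the knockout array and 166 on the control array before scaling. The log2 difference was 1.65 ± 0.21. The software's errors of the 2 signals, 61.0 on the knockout array and 17.3 on the control array, did not bring them near each other. The 2-fold line was passed upward by 2.98% and downward by 4.47% of all 12399 measured genes, beside 1 and 0 of the 9. At 1.5-fold, 3 of the 9 were higher (Cd207, Cd86 and Cd52) and 1 lower (Cd83), beside 10% and 13.4% of all measured genes. At 3-fold, Cd207 was higher and none lower, beside 0.831% and 1.52% of all measured genes. Cd207 itself stood far up in that distribution, with a difference at least as high in 92 other genes (0.742%). It stayed at least 2-fold higher under 10 of 10 other settings, from 1.32 under normexp background correction to 1.99 under median scaling. Averaging probes, changing the background filter or leaving out probes near non-uniform spots could not move its single probe, and each gave 1.65.

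**Figure D1:**
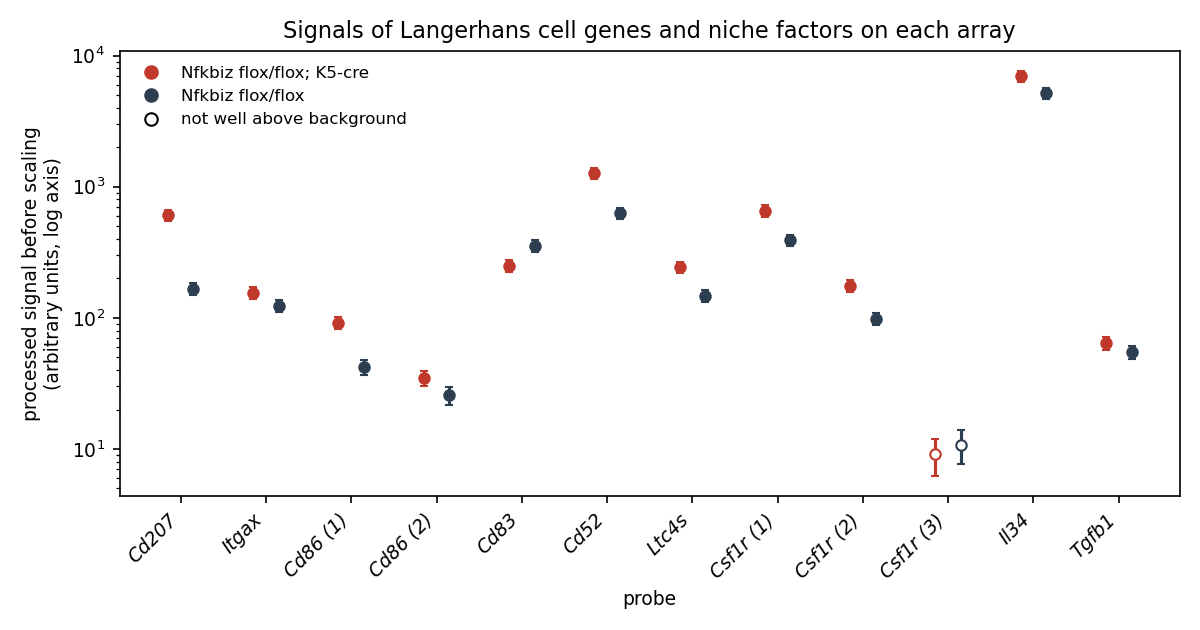
Processed signal before scaling (log axis, arbitrary units) of each of the 12 probes on the knockout array (red) and the control array (dark blue), with bars for the scanner software's error of 1 spot. Numbers in brackets separate probes of a gene, open circles were not well above background, and Cd207 is the pair furthest apart, at 608 and 166.

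Genes for surface proteins of antigen-presenting cells differed among themselves in RNA signal. Cd86 encodes a costimulatory ligand for CD28 on T cells, and 2 probes read it. The brighter had signals of 91.8 on the knockout array and 42.5 on the control array, a log2 difference of 0.88 ± 0.24. The dimmer had 34.7 on the knockout array and 25.7 on the control array, a log2 difference of 0.21 ± 0.29. The probes therefore gave unequal sizes for 1 gene, the dimmer within its own error of 0. The brighter probe's difference was 0.31 under normexp, 1.03 under quantile normalization, 1.23 under median scaling and 1.30 with the local spatial median removed, so its side of the 2-fold line depends on the processing.

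Cd83 encodes a surface protein of maturing dendritic cells that keeps MHC class II and CD86 at the surface. It had a signal of 250 on the knockout array and 354 on the control array, a log2 difference of -0.73 ± 0.21. It was the only gene of the 9 below 0, and it stayed below 0 under 10 of 10 other settings, from -0.74 to -0.37. The settings on probe choice and background filter could not move its single probe either. A difference at least as low was found in 9.30% of the other measured genes.

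Cd52 encodes a small glycoprotein of the surface of lymphocytes and other leukocytes. Its signal was 1270 on the knockout array and 626 on the control array, and the log2 difference was 0.79 ± 0.20. Under median scaling it was 1.14, past 2-fold. Itgax encodes CD11c, the integrin subunit that marks dendritic cells. It had a signal of 155 on the knockout array and 123 on the control array. After scaling, its log2 difference of 0.11 ± 0.21 was within its error. These genes for surface proteins thus did not differ alike: from Cd207 at 1.65 they spread through Cd86 and Cd52 to Itgax near 0 and Cd83 below it.

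**Figure D2:**
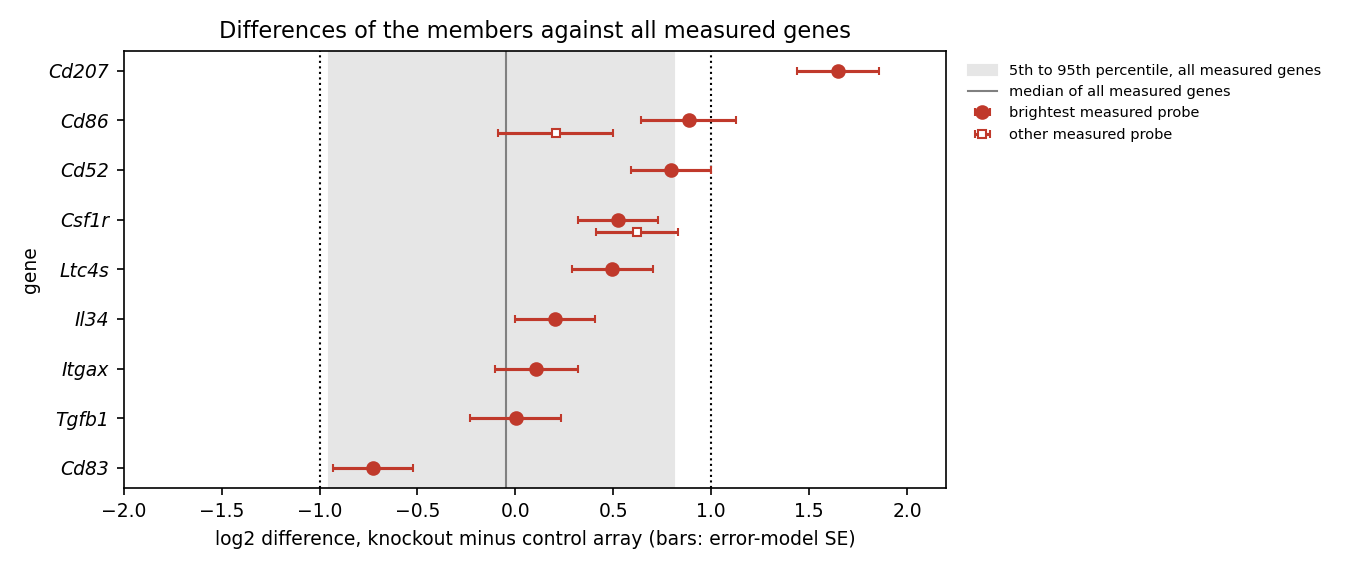
Log2 difference, knockout minus control array, of the 9 measured genes (filled circles, brightest probe) and of their other measured probes (open squares), with error-model standard errors. The grey band runs from the 5th to the 95th percentile of all measured genes, -0.95 to 0.81, and dotted lines mark 2-fold; Cd207 at 1.65 lies outside both, and Cd86 at 0.88 lies outside the band alone.

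Ltc4s encodes leukotriene C4 synthase, which joins glutathione to leukotriene A4 to make the cysteinyl leukotrienes. Its signal was 244 on the knockout array and 148 on the control array, a log2 difference of 0.49 ± 0.21. Further genes of the pathway were picked here for their role after their values were seen. Alox5, the 5-lipoxygenase, had 911 on the knockout array and 545 on the control array (0.51 ± 0.20), and its other measured probes were at 0.39 and 0.91. Alox5ap, its activating protein, had 801 on the knockout array and 473 on the control array (0.53 ± 0.20). Pla2g4a, the phospholipase that frees arachidonic acid, was at 0.37 and its other probe at 0.44. Lta4h, which takes the same intermediate to leukotriene B4 instead, differed by 0.10. Of 18 measured genes of leukotriene and prostaglandin synthesis and reception, 8 were above 0 and 10 below. The median was -0.23, and 1 passed 2-fold, downward, as did 4.47% of all measured genes. The lower gene was the inducible cyclooxygenase Ptgs2, at 80.7 on the knockout array and 215 on the control array. The leukotriene B4 receptor genes Ltb4r2 and Ltb4r1 were at -0.93 and -0.67, and Ggt1, whose product processes cysteinyl leukotrienes, was at -0.59 ± 0.37. Ggt5, with a like role, was at 0.49 ± 0.25 and its other probe at -0.13, and the cysteinyl leukotriene receptor gene Cysltr1 was at 0.48 ± 0.21 and its other probe at 0.22, both also picked for their role. Of the same list, Mgst2 had 2770 on the knockout array and 3550 on the control array (-0.58 ± 0.20), at a probe near a non-uniform spot. Abcc1 was at -0.37 and its other probes at -0.18 and -0.44. Mgst2 and Abcc1 were also picked after their values were seen.

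Csf1r encodes the receptor tyrosine kinase through which Langerhans cells receive interleukin 34 and CSF1. Its brightest probe had 654 on the knockout array and 389 on the control array, a log2 difference of 0.52 ± 0.20. A second probe had 176 on the knockout array and 97.8 on the control array, a log2 difference of 0.62 ± 0.21. These probes differed from each other by less than their errors. The last of the 3 probes, at 9.15 on the knockout array and 10.8 on the control array, was not well above background on either and gives no direction.

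Il34 encodes the keratinocyte ligand of that receptor. It had a signal of 6930 on the knockout array and 5140 on the control array. The log2 difference was 0.20 ± 0.20. A spot marked as non-uniform was printed no more than 3 rows and 3 columns from its probe. Under median scaling, which moves every gene up by 0.35, it was 0.55. Csf1, the other ligand, was picked for its role after its value was seen and had 371 on the knockout array and 296 on the control array, a log2 difference of 0.10. Of 11 measured genes of the CSF1 receptor axis, 1 was at least 2-fold higher and none lower, with a median of 0.04. Over all measured genes these shares were 2.98% and 4.47%. The higher gene was Pik3cd, a phosphoinositide 3-kinase catalytic subunit of leukocytes, at 91.6 on the knockout array and 28.0 on the control array (1.48 ± 0.25, and 0.51 under normexp). The next furthest were Ptprz1, a further receptor for interleukin 34, at -0.77, and the lipid phosphatase gene Inpp5d at 0.41.

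Tgfb1 was read by 1 probe printed in 10 spots, which shows the technical spread directly. On the knockout array the spots ran from 55.2 to 68.3 with a median of 64.4. On the control array the 9 spots kept ran from 45.6 to 60.5 with a median of 55.7, and the tenth was marked as an outlier. Before scaling, the knockout signal was the higher one at every spot position, although the ranges over spots overlapped. After scaling, the log2 difference was 0.00 ± 0.23, spot by spot it ran from -0.14 to 0.26 (SD 0.13 over 9 spots of these arrays), and 5 of 9 spots were higher on the knockout array. Its sign depended on the processing, with -0.10 under normexp and 0.35 under median scaling.

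**Figure D3:**
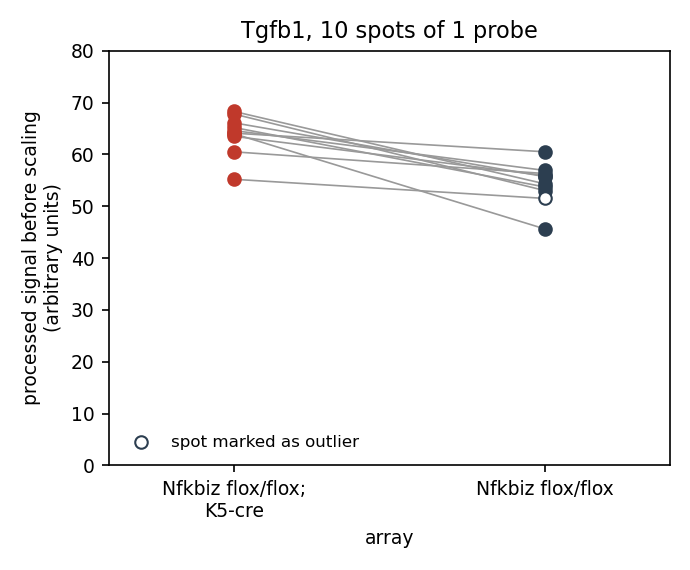
Processed signal before scaling (arbitrary units) of the 10 Tgfb1 spots on the knockout array (left, red) and the control array (right, dark blue), with a line joining the same spot position. The open circle is the control spot left out as an outlier, and the ranges of 55.2 to 68.3 and 45.6 to 60.5 overlap.

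Some genes that activate or carry the TGF-β signal were lower on the knockout array. Of 27 measured genes of TGF-β and BMP activation, reception and signalling, 6 passed 2-fold downward and none upward by their brightest probes. Over all measured genes, 4.47% did so downward and 2.98% upward. The list median was -0.39 beside -0.05 over all measured genes. Probes of a gene opposed each other for Skil, a repressor of SMAD signalling, at -0.49 and 1.51, for the integrin subunit gene Itgav, at -0.42 and 0.64, and for the receptor gene Bmpr1a, at 0.24 and -0.12, all 3 picked after their values were seen. Thbs1, whose product thrombospondin 1 can activate latent TGF-β, had 406 on the knockout array and 3050 on the control array, a log2 difference of -3.14 ± 0.20, and its other 2 measured probes gave -3.03 and -3.72. Itgb6, the β subunit of the epithelial integrin that activates latent TGF-β in epidermis, had 111 on the knockout array and 374 on the control array (-1.98 ± 0.21, its other probe at -1.42). The latent TGF-β binding protein gene Ltbp2 was 3.59-fold lower and the signal transducer gene Smad3 2.68-fold lower. The activin type I receptor gene Acvr1b (-1.10 ± 0.38) and the ligand gene Tgfb3 (-1.07 ± 0.21) were just past 2-fold and were -0.76 and -0.73 under median scaling. The Tgfb3 probe was near a non-uniform spot, and its difference was -0.99 with the local spatial median removed. Under normexp Ltbp2, Acvr1b and Tgfb3 were at -0.86, -0.42 and -0.67. Past these, the inhibitory Smad6 and Smad7 were at -0.76 and 0.87. The receptor genes Tgfbr1 and Tgfbr2, picked for their role after their values were seen, were at 0.54 and -0.46, on opposite sides of 0. The list median was -0.04 under median scaling, with all genes then 0.35 higher.

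As a group, 8 of the 9 measured genes had a difference above 0, where 45.6% of all measured genes did. The 9 had a median of 0.49, beside the -0.05 of all genes. By more than 2 standard errors, 5 of 9 were higher, where 15.9% of all genes were, and 1 of 9 was lower, where 17.7% were. These shares describe genes that were picked with earlier results of these arrays known, and they are not a test. The 9 differences stood in patches of the arrays where the neighbouring spots within 3 rows and 3 columns had median differences of -0.41 to 0.09.

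A wider list of genes of the Langerhans and dendritic lineage held 24 measured genes. Of these, 3 were at least 2-fold higher and none lower, beside 2.98% and 4.47% of all measured genes, and the median was 0.03. Its difference from the 9 genes was not tested. The 3 were Id2, a transcriptional regulator that Langerhans cells need to develop, Plek, which encodes the leukocyte protein pleckstrin, and Irf8, a transcription factor gene of dendritic cells and monocytes. Id2 had 3130 on the knockout array and 781 on the control array (1.78 ± 0.20, its other probe at 1.68). Plek had 117 on the knockout array and 31.2 on the control array (1.68 ± 0.25), and Irf8 had 81.7 on the knockout array and 31.5 on the control array (1.15 ± 0.24). Under normexp Plek and Irf8 were at 0.74 and 0.46. Id2 is also expressed by keratinocytes and T cells. The next furthest were Mpeg1, which encodes a pore-forming protein of macrophages, at 0.84 and Ptprc, the pan-leukocyte gene of CD45, at 0.81. Cx3cr1, a chemokine receptor gene of the precursors of Langerhans cells, had 8.88 on the knockout array, not well above background, and 23.5 on the control array. At the main scaling it was at least 2.27-fold lower on the knockout array. Its control signal was low, and neighbouring spots had a median difference of -0.70.

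Of 16 maturation and migration genes of dendritic cells with a probe, 9 were measured on both arrays, and Cd40, Cd80, Ccl17, Ccl22 and Socs2 stayed near background on both. The median of the 9 was -0.07. Beside 4.47% of all measured genes, 1 of the 9 passed 2-fold, downward. It was Marcks, a regulator of the actin cytoskeleton, with 1270 on the knockout array and 2730 on the control array, at -1.33 ± 0.20 and -0.98 under median scaling. Its relative Marcksl1 was at 0.91, the adhesion gene Icam1 at 0.85 and Cd274, which encodes PD-L1, at -0.67. Pdcd1lg2, which encodes PD-L2, had 34.3 on the control array and was not well above background on the knockout array, at least 3.32-fold lower there.

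Of 11 measured genes for attracting and anchoring Langerhans cells, 1 was at least 2-fold higher and 1 lower, with a median of -0.31. Over all measured genes these shares were 2.98% and 4.47%. Tnf, a cytokine that mobilises Langerhans cells, had 227 on the knockout array and 52.4 on the control array (1.89 ± 0.22), at a probe near a non-uniform spot. Ccl20, the chemokine that draws cells with the receptor CCR6, had 202 on the knockout array and 588 on the control array (-1.77 ± 0.21). Ccl7 had 29.9 on the control array and was not well above background on the knockout array, at least 2.89-fold lower there. The receptor genes Ccr6 and Ccr2 were not well above background on either array. Kitl, Tslp and Ccl2 were at -0.99, -0.91 and -0.67, and the Kitl probe was near a non-uniform spot. Among 4 measured myeloid C-type lectin genes none was past 2-fold. They were Clec4n, which encodes dectin-2, at 0.87, Mgl2 at -0.40, Cd302 at -0.21 and Mrc2 at 0.11, and a further 11 of 18 with a probe were not well above background on either array.

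**Figure D4:**
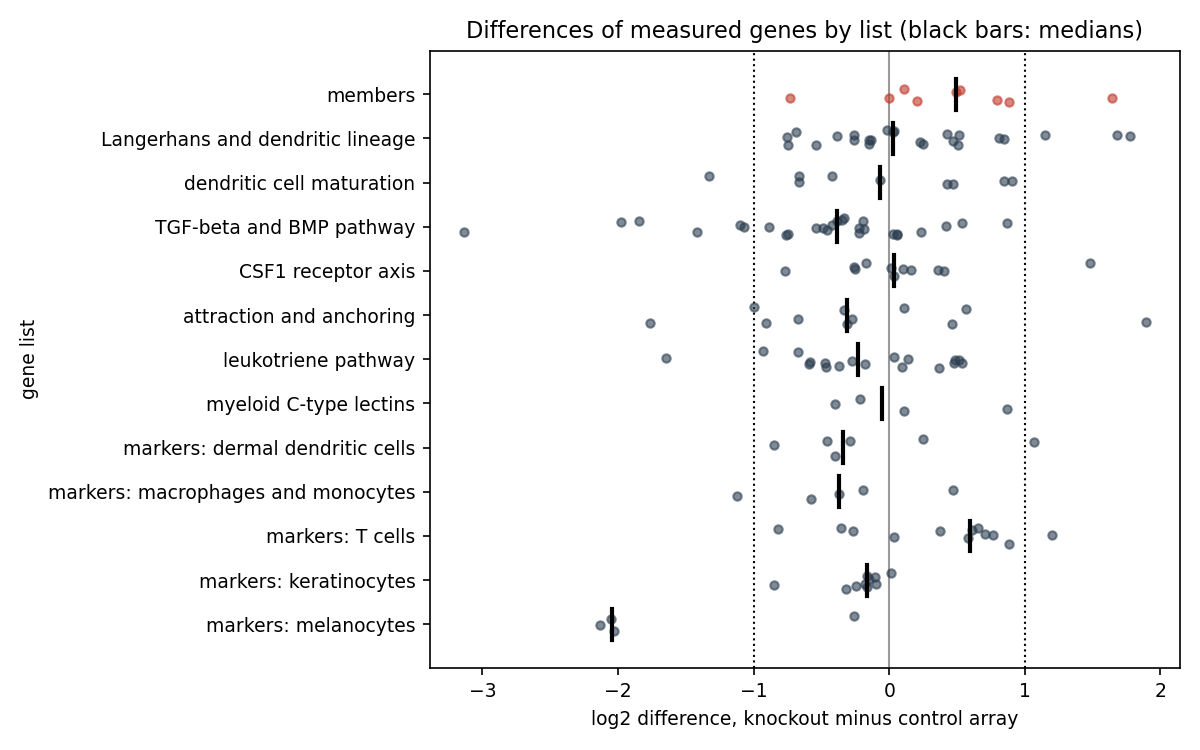
Log2 difference, knockout minus control array, of each measured gene, with the 9 genes described here on the top row (red) and the other lists with at least 4 measured genes under them; black bars are medians and dotted lines mark 2-fold. The median is 0.49 on the top row, -0.39 for the TGF-β and BMP pathway, 0.60 for T-cell markers and -2.04 for melanocyte markers.

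The sign of several list medians depended on the scaling. Under median scaling they were 0.28 for maturation genes, 0.04 for attraction and anchoring, 0.12 for the leukotriene pathway, 0.29 for C-type lectins, 0.18 for keratinocyte markers, 0.34 for B-cell markers, whose main median was -0.01, and 0.0038 for markers of dermal dendritic cells. Under normexp they were -0.02 for the lineage list and -0.08 for the CSF1 receptor axis. The medians of T-cell, macrophage and melanocyte markers and of the TGF-β pathway kept their sign under all 4 scalings and corrections tried on the lists. That of macrophage markers was near 0 under some, at -0.02 under median scaling and -0.04 under quantile normalization. The TGF-β median was -0.04 under median scaling.

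Several of the 9 genes are expressed by other leukocytes, so markers of those cells were read beside them. T-cell markers had 12 of 12 genes measured and a median of 0.60, which was 0.25 under normexp. Beside 2.98% of all measured genes, 1 of the 12 was at least 2-fold higher. It was the T-cell receptor chain gene Cd247 at 1.20, whose other probe was at -0.33 and which was at 0.76 under normexp. Of the 12, 9 were above 0 and 3 below. Their summed scaled level was 21.8 on the knockout array and 21.5 on the control array, with Thy1 the largest part. Thy1 had 2050 on the knockout array and 2110 on the control array (-0.27, its other probe at -1.24). Its brighter probe was near a non-uniform spot. Trat1 was at 0.88, Il2rb at -0.82 and Cd5 at 0.76. T cells can express Cd52 and some express Itgax, and the part of T cells in these differences was not tested.

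Of 11 macrophage and monocyte markers with a probe, 5 were measured, with a median of -0.37, and Mrc1, Cd163, Lyve1, Lyz2, Mertk and Fcgr1 were not well above background on either array. The complement gene C1qa was the 1 past 2-fold, downward, beside 4.47% of all measured genes. It was at -1.12 ± 0.31, with -0.77 under median scaling and -0.44 under normexp. Ly6c2 was at -0.58, and Adgre1, which Langerhans cells also express, at 0.47. The summed scaled level was 25.2 on the knockout array and 35.2 on the control array, mostly from Ly6c2.

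Of 8 markers of dermal dendritic cells with a probe, 6 were measured, with a median of -0.34 and summed scaled levels of 9.38 on the knockout array and 9.53 on the control array. Itgae, an integrin gene that dendritic epidermal T cells also express, was 2.10-fold higher, with 0.79 under normexp. Xcr1 was at -0.85 and Cadm1 at -0.46, its other probes at -1.01 and -0.25. Dermal langerin-positive cells also express Cd207, and their part was not tested.

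Neutrophil markers were not well above background in 7 of 7 genes on either array. Of 6 mast cell markers with a probe, 2 were measured, Cma1 at -0.92 ± 0.37 and Mcpt4 at 0.10 ± 0.39. Of 5 B-cell markers with a probe, 3 were measured, among them Blnk at -0.28 and Cd79a at 0.15. Their summed scaled levels were 0.19, 0.34 and 49.3 on the knockout array and 0.22, 0.42 and 59.7 on the control array for neutrophils, mast cells and B cells, the last almost wholly from Blnk.

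Keratinocyte markers had a median of -0.17 with none of 10 past 2-fold. Sfn was furthest, at -0.85, then Trp63 at -0.32 and Krt14 at -0.25. Their summed scaled level was 1839 on the knockout array and 2079 on the control array. Of 4 measured melanocyte markers, 3 were at least 2-fold lower, beside 4.47% of all measured genes. They were Dct (4.38-fold), Tyrp1 (4.15-fold) and Pmel (4.09-fold), at -1.93, -0.93 and -1.34 under normexp. Sox10 was at -0.26, and Tyr was not well above background on either array. The summed level was 2.29 on the knockout array and 9.20 on the control array. Whether the share of other cells moves the 9 differences was not tested.

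**Figure D5:**
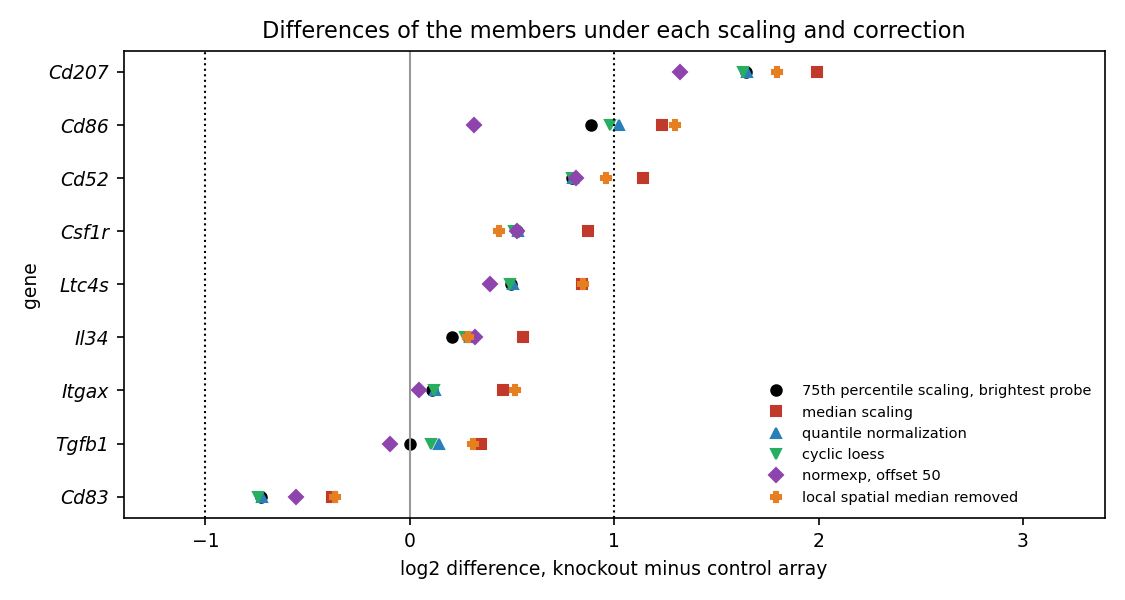
Log2 difference, knockout minus control array, of each of the 9 measured genes under 6 scalings or corrections (symbols); dotted lines mark 2-fold. Cd207 lies between 1.32 and 1.99 and Cd83 between -0.74 and -0.37 under these, while Cd86 ranges from 0.31 to 1.30 across the 2-fold line.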

How the data were processed

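Epidermis was peeled after ammonium thiocyanate treatment, and total RNA was amplified, labelled with Cy3 and hybridised to 1 one-colour Agilent array per genotype, per the labels' protocols. The deposited scanner files hold spot intensity on a linear scale from Agilent Feature Extraction 10.7.3.1, background-subtracted and detrended, on a design annotated on mm9, per the file headers. The authors' deposited table holds log2 values centred per probe (columns sum to 0 within 1e-06, column medians -0.14 for the knockout and 0.14 for the control array). Its knockout minus control difference correlated with that of the scanner signals at r = 1.00 over 41134 probes, and lay a median of -0.00 from the scaled one, which settles scale, centring and direction. Levels cannot be had from it.

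Log2 signals were set relative to each array's 75th percentile over non-control probes. Outlier spots were left out and replicate spots averaged. A probe was measured if every kept spot was well above background and none saturated. RefSeq accessions of GRCm38.p6 named 26662 of 41134 probes (64.8%), for names only. A gene was its brightest measured probe. A gene dim on 1 array has a bound against the higher of its own dim signal and the lowest signal well above background (12.1 and 12.7). Bounds hold at the main scaling only and carry no error. The error of a difference combines the software's errors of 1 spot on each array and was not divided by the number of spots. Summed levels add the highest scaled signal of each gene with a probe.

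The members, the 15 lists and the rules were chosen with earlier results of these data known. Named genes were all members, list genes at least 2-fold apart, and up to 3 further ones per list; some genes the rule names are not reported here. Calls are by size at 2-fold, without tests, because each genotype has 1 array, and the number of arrays limits the precision. The calling code was tested on simulated data. Python 3.11.15, numpy 2.4.6, pandas 2.3.3, matplotlib 3.10.9 and, in R 4.3.3, limma 3.58.1 were used.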

Additional observations from a re-analysis of the deposited data

How the results depend on the processing

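No paired analysis was possible because there is no repeat array of either genotype. Naming probes by a gene name column was not run, because the files used here have none. Removing the local spatial median, and fitting normexp on median spot signals without non-uniform spots, were chosen after seeing the data. The members at least 2-fold higher (1) were 3 under median scaling, 2 under quantile normalization, 2 with the local spatial median removed and 3 at 1.5-fold. None was lower at 2-fold and 1 was at 1.5-fold. Their median of 0.49 was 0.84 under median scaling and 0.32 under normexp. Counts of all genes 2-fold up and down (370 and 554) changed to 1009 and 283 with median scaling, 184 and 228 with normexp, 820 and 349 with the local spatial median removed, 662 and 1442 with no filter on background, 565 and 839 when measured on at least 1 array, 1241 and 1664 at 1.5-fold, and 103 and 189 at 3-fold. Of the 9 genes, Tgfb1 changed sign under 2 of 10 other settings and none of the others did in those run, 9 for Il34, whose only probe is left out near non-uniform spots. Dim probes limit Cd86 and Tgfb1, whose signals were at most 7.59 times the lowest well above background.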
